A study of Mus musculus with 24 samples.

Results

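The levels of 7 genes that sense, move and export sterols were followed in mouse liver under ethanol, a plasticiser, and both together. The genes were Srebf2, Scap, Insig1, Insig2, Stard4, Abcg5 and Abcg8, chosen by symbol from a list of sterol-handling genes, and they make up 7 of the 17537 genes listed in at least 1 library. All 7 were listed in all 24 libraries, and all 7 passed the filter on low values (FPKM of at least 1 in at least 6 libraries) that left 10697 genes for testing. FPKM counts sequenced fragments relative to transcript length and library size. The list had been named for LDL uptake as well, but none of the 7 takes up LDL. The genes act in sterol sensing, sterol transfer inside the cell, and export.

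Livers came from male C57BL/6 mice of 20 to 30 g, with 12 mice and 6 libraries per group, and all mice were dosed by gavage. The vehicle group received 0.5% CMC. The ethanol group received 1 g/kg ethanol, the DEHP group received 2500 mg/kg DEHP (di(2-ethylhexyl) phthalate, a phthalate used to soften plastics and known in rodents for its action on peroxisomes), and the combination group received both agents at these doses. CMC is mentioned for the vehicle mice only; if the other mice went without it, a treatment and its carrier cannot be told apart against vehicle. The labels used here state no age, duration of dosing, time of collection or batch. No label ties a library to an animal or says whether mice were pooled, so each p-value reflects only how far these samples spread, and that spread may be technical.

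SCAP carries the SREBP-2 precursor, the product of Srebf2, from the endoplasmic reticulum to the Golgi, where proteases release the part that enters the nucleus and switches on genes of cholesterol synthesis. When sterols are plentiful, the INSIG proteins hold SCAP back in the endoplasmic reticulum. STARD4 transfers sterol between membranes, and ABCG5 and ABCG8 pair into 1 transporter that secretes sterols from hepatocytes into bile and from enterocytes back into the gut lumen.

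Libraries held 7324793 to 8016662 expected counts in total. All 6 hepatocyte markers were present, with a summed level of 38598 to 66290 FPKM. Skeletal muscle markers, 6 genes in all, summed to 5143 FPKM in vehicle replicate 1 and to 3884 FPKM in combination replicate 6; no other library exceeded 3.77 FPKM. The 5 exocrine pancreas markers summed to 405.5 FPKM in DEHP replicate 6 and to at most 0.38 FPKM elsewhere. Calls of the 7 genes that changed without these 3 libraries are given both ways.

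Of the 7 genes, 6 moved in at least 1 comparison, and Stard4 in none. Insig2 fell with ethanol alone, while Srebf2, Scap, Insig1, Abcg5 and Abcg8 rose with DEHP, alone and with ethanol. With ethanol alone, 3 of the 7 rose and 1 fell, where 14.2% of all genes tested rose and 14.5% fell. With DEHP alone 5 rose and 0 fell (14.4% and 11.6% of all genes), and with the combination 5 rose and 0 fell (19.3% and 17.4%). The 3 comparisons share the vehicle libraries. Their median log2 changes over the 7 genes were 0.34, 0.46 and 0.41, against -0.01, -0.02 and -0.01 over all genes tested. Calls are at an adjusted p below 0.05 in the quasi-likelihood test of edgeR, with Benjamini-Hochberg adjustment over all 10697 genes, and log2 changes are given with their SE. In bulk liver, fewer cells of a type and less RNA per cell cannot be told apart. Whether group ranges overlap is described for the 7 genes. The share of all genes whose ranges do not overlap was not counted.

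**Figure D1:**
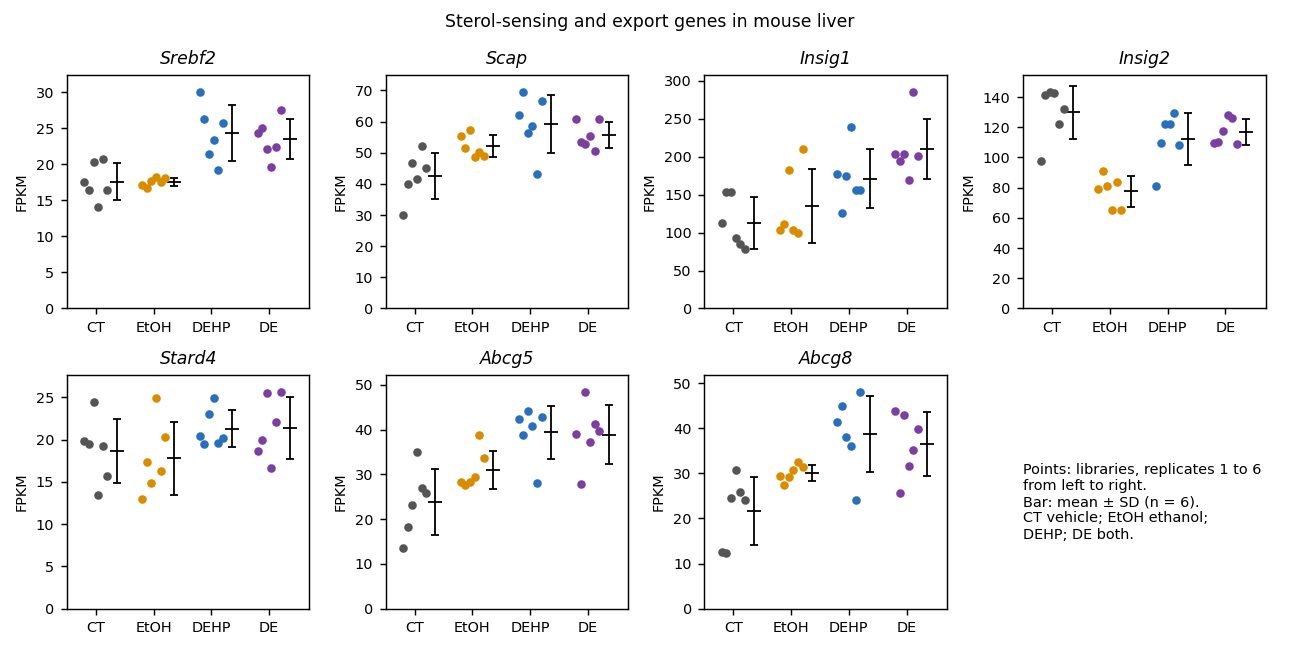
Level of each of the 7 genes in FPKM (linear axes from 0) in each of the 24 libraries; points are libraries, replicates 1 to 6 from left to right, and bars the group mean ± SD (CT vehicle, EtOH ethanol, DE combination). All 6 ethanol libraries of Insig2 lie between 65.1 and 91.0 FPKM, below the vehicle range of 97.6 to 143 FPKM.

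Srebf2 (NCBI gene 20788, chromosome 15, 82147269 to 82205379, GRCm38.p6) encodes the SREBP-2 precursor. The 250 bases before its RefSeq start are shown because its product acts through sites of the kind they hold. Capitals mark the 2 motif matches, a sterol regulatory element core (TCACNCCA, found in 3.67% of 32851 promoters of this length) and a CCAAT box (CCAAT, in 33.8%), both searched on either strand. The window is chr15:82147019-82147268, plus strand.
Srebf2: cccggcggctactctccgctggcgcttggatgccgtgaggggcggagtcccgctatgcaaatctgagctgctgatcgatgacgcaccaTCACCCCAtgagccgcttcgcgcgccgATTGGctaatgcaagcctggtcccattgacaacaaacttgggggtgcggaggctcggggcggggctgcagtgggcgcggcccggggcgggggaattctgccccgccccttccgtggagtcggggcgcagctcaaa

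Srebf2 ranked 2751st of 10697 genes by mean FPKM. In vehicle libraries it ran from 14.1 to 20.7 FPKM with a median of 17.0, and in ethanol libraries from 16.7 to 18.2 with a median of 17.6. With DEHP it ran from 19.2 to 30.0 (median 24.6), and with the combination from 19.6 to 27.5 (median 23.4). Both DEHP-containing groups thus lay above every ethanol library, and 5 of 6 libraries of each lay above every vehicle library. Means were 17.6 ± 2.55 FPKM with vehicle, 17.6 ± 0.58 with ethanol, 24.4 ± 3.85 with DEHP and 23.5 ± 2.74 with the combination (SD, n = 6 each). The rise against vehicle was 0.45 ± 0.10 on the log2 scale with DEHP (edgeR adjusted p = 0.00137) and 0.41 ± 0.10 with the combination (edgeR adjusted p = 0.00196). Ethanol alone gave 0.07 ± 0.10 (edgeR adjusted p = 0.613; 95% interval -0.13 to 0.28).

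Scap (gene 235623, chromosome 9, 110333288 to 110384949) encodes the escort of SREBP-2. It ran from 30.1 to 52.2 FPKM in vehicle libraries (median 43.4) and from 48.8 to 57.3 in ethanol libraries (median 50.9). With DEHP it ran from 43.0 to 69.5 (median 60.3) and with the combination from 50.7 to 61.0 (median 54.5). Vehicle and treated ranges overlapped in each case, with 2 ethanol, 5 DEHP and 5 combination libraries above every vehicle library. Scap rose with DEHP by 0.46 ± 0.11 (edgeR adjusted p = 0.00433) and with the combination by 0.38 ± 0.11 (edgeR adjusted p = 0.011). The call for ethanol (0.36 ± 0.11, edgeR adjusted p = 0.0208) rested on single libraries. It was lost without vehicle replicate 1, the lowest Scap library at 30.1 FPKM and the one rich in muscle transcripts (0.26, edgeR adjusted p = 0.0623), and without ethanol replicate 3 (0.32, edgeR adjusted p = 0.056).

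Without vehicle replicate 1, combination replicate 6 and DEHP replicate 6 together, the Scap rise with DEHP passed. The rise with the combination did not (0.25, edgeR adjusted p = 0.0686), nor did that with ethanol (0.25, edgeR adjusted p = 0.0691). The part of the other tissues' RNA in these values was not tested.

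The INSIG genes differed in their calls against vehicle. Insig2 (gene 72999, chromosome 1, 121304353 to 121332662) and Insig1 (gene 231070, chromosome 5, 28071412 to 28078662) encode the 2 proteins that retain SCAP. Insig1 is a textbook target of SREBPs, whereas Insig2 in liver is known to be made from more than 1 start, of which 1 is repressed by insulin. The 250 bases before the Insig1 start and before 2 of the 3 RefSeq starts of Insig2 are shown because the genes moved differently. The outer Insig2 start is at 121332589 and the one called inner at 121328024. The remaining start, farther inside the gene at 121327678, is not shown. Capitals mark a CCAAT box and an E-box (CACGTG, in 6.02% of promoters of this length) in Insig1, and 3 CCAAT boxes before the outer Insig2 start. The sterol regulatory element core was not found in the Insig1 window. No letters of the sterol regulatory element core, CCAAT box, E-box, GATA box (AGATAA) or D-box (TTANGTAA) occur in the inner Insig2 window. The windows are chr5:28071162-28071411 (plus strand), chr1:121332590-121332839 and chr1:121328025-121328274 (both minus strand).
Insig1: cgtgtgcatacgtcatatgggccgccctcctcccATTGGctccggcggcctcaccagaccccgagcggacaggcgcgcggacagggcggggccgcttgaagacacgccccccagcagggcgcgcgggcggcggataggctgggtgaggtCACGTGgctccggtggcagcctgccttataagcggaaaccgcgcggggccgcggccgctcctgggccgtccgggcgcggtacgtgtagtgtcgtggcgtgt
Insig2, outer start: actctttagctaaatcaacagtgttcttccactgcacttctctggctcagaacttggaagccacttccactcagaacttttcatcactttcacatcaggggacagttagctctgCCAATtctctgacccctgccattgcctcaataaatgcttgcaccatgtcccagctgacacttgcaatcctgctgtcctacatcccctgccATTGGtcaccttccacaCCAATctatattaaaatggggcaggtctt
Insig2, inner start: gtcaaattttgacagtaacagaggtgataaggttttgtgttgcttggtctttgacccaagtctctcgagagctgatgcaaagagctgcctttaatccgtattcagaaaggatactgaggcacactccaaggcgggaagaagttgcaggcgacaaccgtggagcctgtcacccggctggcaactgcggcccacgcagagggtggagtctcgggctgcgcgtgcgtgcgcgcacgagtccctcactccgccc

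Insig2 was among the more abundant genes, 789th of 10697 by mean FPKM. Vehicle libraries ran from 97.6 to 143 FPKM (median 136) and ethanol libraries from 65.1 to 91.0 (median 80.1), so every ethanol library lay below every vehicle library. DEHP libraries ran from 80.8 to 130 FPKM (median 116) and combination libraries from 109 to 128 (median 114), so the combination lay wholly above ethanol alone. In descending order the means were vehicle (130 ± 17.8 FPKM), combination (117 ± 8.78), DEHP (112 ± 17.4) and ethanol (77.6 ± 10.3; SD, n = 6 each). Of the neighbours in that order, DEHP and ethanol alone differed (edgeR adjusted p = 0.00451).

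Against vehicle, Insig2 fell by 0.67 ± 0.11 on the log2 scale with ethanol (edgeR adjusted p = 0.000115), the single fall among the 7 genes. With DEHP the value was -0.24 ± 0.11 (edgeR adjusted p = 0.117) and with the combination -0.17 ± 0.11 (edgeR adjusted p = 0.245). Both of these passed without vehicle replicate 1 (-0.32, edgeR adjusted p = 0.0264, and -0.27, edgeR adjusted p = 0.0475), where Insig2 had its lowest vehicle value. Without the 3 libraries that held other tissues' transcripts, the value with DEHP passed (-0.32, edgeR adjusted p = 0.0391) and that with the combination did not (-0.24, edgeR adjusted p = 0.0904). The ethanol change differed with and without DEHP. Adding ethanol to DEHP gave 0.07 ± 0.11, and the interaction, the ethanol change with DEHP minus that without, was 0.74 ± 0.16 (edgeR adjusted p = 0.00536). It was called in 1 of the 7 genes, where 3.32% of all genes had a higher and 3.09% a lower interaction.

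Markers of liver cell types also moved with ethanol. Of the hepatocyte markers, 2 of 6 rose and 1 fell, with summed levels of 49207 to 65436 FPKM with vehicle and 52596 to 66290 FPKM with ethanol. Among markers of less abundant cells, 2 of 4 tested for cholangiocytes, 2 of 5 for sinusoidal endothelium and 2 of 5 for stellate cells fell. Of 5 Kupffer cell markers, 0 rose and 0 fell. Over all genes tested, 14.2% rose and 14.5% fell with ethanol. The part of these cell types in the ethanol results was not tested.

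Insig1 had the highest mean level of the 7 genes. It ran from 78.0 to 154 FPKM in vehicle libraries (median 103) and from 99.1 to 211 with ethanol (median 107). With DEHP it ran from 125 to 240 (median 165), and with the combination from 169 to 285 (median 202), above every vehicle library. Group means were, in ascending order, vehicle (113 ± 33.7 FPKM), ethanol (135 ± 48.5), DEHP (171 ± 38.3) and combination (210 ± 39.3; SD, n = 6 each). No neighbours in that order differed in edgeR. The spread within groups was wide, with an SD of 0.37 on the log2 scale against a median of 0.22 over all genes tested.

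The combination raised Insig1 by 0.89 ± 0.20 (edgeR adjusted p = 0.00116). The call for DEHP alone (0.58 ± 0.20, edgeR adjusted p = 0.0326) was lost on leaving out any of vehicle replicates 1, 4, 5 or 6 or DEHP replicates 1 or 4 (0.47 to 0.57, edgeR adjusted p = 0.0513 to 0.0862), and without the 3 libraries with other tissues' transcripts (0.58, edgeR adjusted p = 0.0744). Ethanol alone gave 0.34 ± 0.20 (edgeR adjusted p = 0.205).

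Because both genes are read from the same library, their ratio does not depend on scaling between libraries. The log2 ratio of Insig2 to Insig1 FPKM averaged 0.25 ± 0.43 with vehicle, -0.74 ± 0.58 with ethanol, -0.60 ± 0.38 with DEHP and -0.83 ± 0.25 with the combination (SD, n = 6 each). Insig2 thus exceeded Insig1 on average in vehicle livers alone. The vehicle libraries were split, at -0.21, -0.12 and -0.09 in replicates 1 to 3 and 0.62, 0.52 and 0.76 in replicates 4 to 6. The differences from vehicle were -0.99 for ethanol (2-sided exact permutation p = 0.00216, the smallest that 6 against 6 can give; adjusted p = 0.0108 over 10 ratio tests), -0.85 for DEHP (exact p = 0.00433, adjusted p = 0.0144) and -1.07 for the combination (exact p = 0.00216, adjusted p = 0.0108). Of the 2 genes, Insig2 alone passed with ethanol and Insig1 alone with DEHP and the combination. With DEHP this turned round without the 3 libraries that held other tissues' transcripts. Insig2 then passed (-0.32, edgeR adjusted p = 0.0391) and Insig1 did not (0.58, edgeR adjusted p = 0.0744). No difference between the combination and either single agent passed (exact permutation, adjusted p = 0.506 and 0.753).

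**Figure D2:**
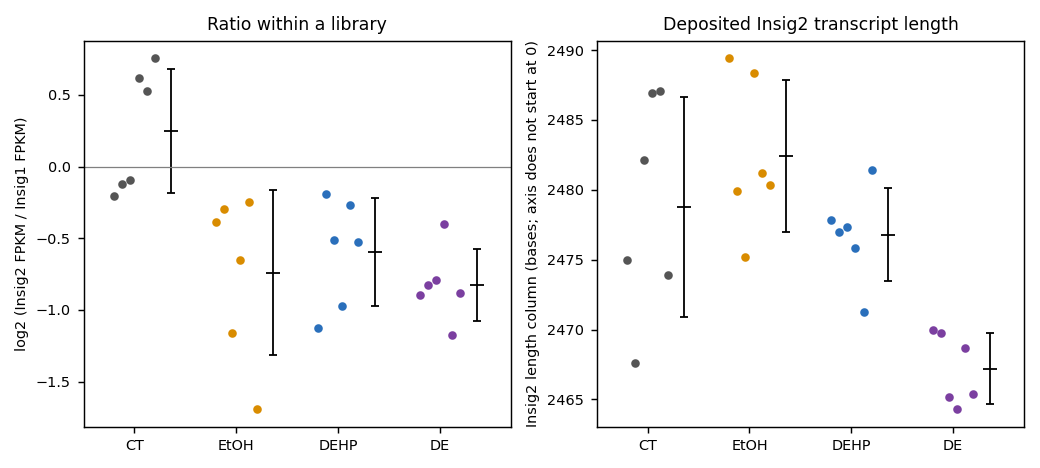
Log2 ratio of Insig2 to Insig1 FPKM, and the deposited length value of Insig2 in bases, in each library by group. Ratios averaged 0.25 with vehicle and -0.83 with the combination, and the 6 combination libraries have the lowest mean length, 2467 bases.

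The deposited tables also carry a length for each gene that varies between libraries, as the length of a mixture of transcripts would; no label says what the authors' program put there. For Insig2, with 5 transcripts listed, it ran from 2464 to 2470 bases in combination libraries, below every DEHP library (2471 to 2481) and every ethanol library (2475 to 2489). The differences were -9.59 bases against DEHP and -15.2 against ethanol (exact permutation p = 0.00216 each, adjusted p = 0.0216 over 20 tests). Vehicle libraries ran from 2468 to 2487 bases and overlapped the combination, and that difference, -11.6 bases, did not pass (exact permutation, adjusted p = 0.0577), though it did without vehicle replicate 2 (-13.8 bases, adjusted p = 0.0144). These tests were added after the column was seen. Without the 3 libraries that held other tissues' transcripts the differences from DEHP and ethanol were -8.29 and -14.8 bases (exact permutation, adjusted p = 0.0794 each). For DEHP the combination still lay wholly below, which with 5 libraries against 5 gives the smallest possible p, 0.00794. The length values of Srebf2, Scap and Abcg8 passed in no comparison.

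Abcg5 (gene 27409, chromosome 17, 84658174 to 84683011) and Abcg8 (gene 67470, chromosome 17, 84676302 to 84700333) encode the subunits of the sterol exporter and lie head to head. Their listed spans overlap, because the farther Abcg8 start, at 84676302, lies within Abcg5. How reads from the shared stretch were counted is not stated. The 109 bases between the Abcg5 start and the nearer Abcg8 start, chr17:84683012-84683120 on the plus strand, are shown because they lie before both genes, whose levels moved together. Capitals mark 2 GATA boxes, on the minus strand. In 32851 promoters, 3.98% held a GATA box in the 109 bases before the start and 0.186% held at least 2.
Abcg5 to Abcg8: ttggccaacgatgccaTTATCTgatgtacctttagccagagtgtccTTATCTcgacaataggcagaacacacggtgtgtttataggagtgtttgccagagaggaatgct

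Both subunits of the exporter rose with DEHP and with the combination. Abcg5 ran from 13.6 to 35.0 FPKM with vehicle (median 24.5), 27.7 to 38.7 with ethanol (median 28.9), 28.0 to 44.1 with DEHP (median 41.5) and 27.9 to 48.4 with the combination (median 39.4). Abcg8 ran from 12.4 to 30.6 with vehicle (median 24.3), 27.4 to 32.5 with ethanol (median 30.1), 24.1 to 48.0 with DEHP (median 39.7) and 25.7 to 43.8 with the combination (median 37.5). All of these ranges overlapped the vehicle range, though 5 of 6 libraries of each DEHP-containing group lay above every vehicle library for either gene.

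With DEHP, Abcg5 rose by 0.71 ± 0.16 and Abcg8 by 0.81 ± 0.19 (edgeR adjusted p = 0.00231 and 0.00253). With the combination the rises were 0.70 ± 0.16 and 0.76 ± 0.19 (edgeR adjusted p = 0.0016 and 0.00274). Ethanol alone gave 0.45 ± 0.16 and 0.55 ± 0.19 (edgeR adjusted p = 0.0417 and 0.0311), and DEHP alone did not differ from ethanol alone for either gene in edgeR (0.26 ± 0.16, adjusted p = 0.253, and 0.26 ± 0.19, adjusted p = 0.328). The ethanol calls did not hold without vehicle replicate 1, where Abcg5 was at its lowest (0.31, edgeR adjusted p = 0.117 for Abcg5; 0.41, edgeR adjusted p = 0.0861 for Abcg8). They were also lost for both genes on leaving out vehicle replicate 2 or ethanol replicates 1, 3, 5 or 6, and for Abcg5 alone on leaving out vehicle replicate 3, DEHP replicate 4 or combination replicates 5 or 6 (edgeR adjusted p = 0.0526 to 0.108 over these). Without TMM scaling factors, the ethanol calls of Abcg5, Abcg8 and Scap were lost together (edgeR adjusted p = 0.0809, 0.0563 and 0.0506). Without the 3 libraries with other tissues' transcripts, those of Abcg5 and Abcg8 were lost too (0.31 and 0.41, edgeR adjusted p = 0.13 and 0.0906).

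Across the 24 libraries the log2 levels of Abcg5 and Abcg8 had a Pearson r of 0.95, and of 0.90 after group means were subtracted. These libraries share depth, liver tissue and scaling. They include those that held other tissues' transcripts, and the r is a description. The part of the overlapping stretch of the genes in it was not tested. The log2 ratio of Abcg8 to Abcg5 averaged between -0.16 with vehicle and -0.03 with ethanol, and none of 5 comparisons of it passed (differences -0.06 to 0.13, exact permutation, adjusted p = 0.506 to 0.673). The enterocyte list, for the other cell type that makes this exporter, rested on Fabp2, a lipid-binding protein gene. Its summed level was 19.2 to 40.7 FPKM with vehicle, 25.0 to 32.9 with ethanol, 42.2 to 75.1 with DEHP and 60.0 to 90.1 with the combination, while Vil1, villin of the brush border, was at or near 0 (at most 0.36 FPKM). Of the 6 hepatocyte markers, 4 fell and 1 rose with DEHP, where 11.6% of all genes tested fell and 14.4% rose. The combination gave the same counts, where 17.4% of all genes fell and 19.3% rose. The part of these markers in these results was not tested.

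**Figure D3:**
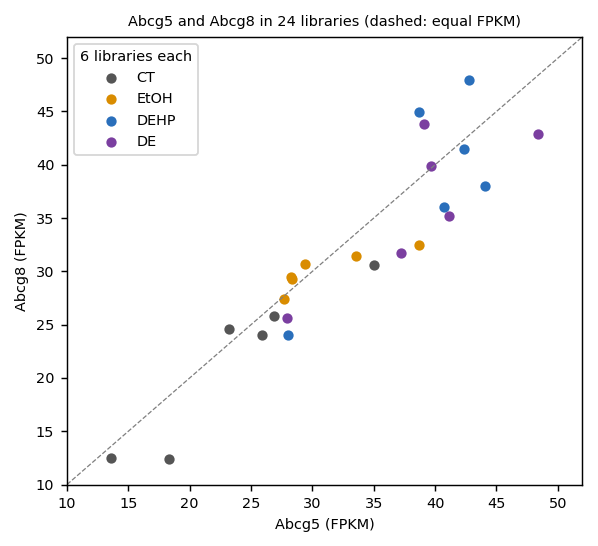
Abcg8 against Abcg5 level, both in FPKM on linear axes, with 1 point per library coloured by group. The 24 points follow a common line, from 12.4 to 48.0 FPKM of Abcg8.

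Stard4 (gene 170459, chromosome 18, 33199138 to 33213862) encodes the sterol transfer protein. It ran from 13.4 to 24.4 FPKM with vehicle (median 19.4), 12.9 to 25.0 with ethanol (median 16.8), 19.5 to 24.9 with DEHP (median 20.3) and 16.6 to 25.6 with the combination (median 21.0). All 4 ranges overlapped. The log2 changes against vehicle were -0.01 ± 0.13, 0.17 ± 0.13 and 0.19 ± 0.13, with 95% intervals of -0.27 to 0.26, -0.09 to 0.43 and -0.08 to 0.45, and none passed in edgeR (adjusted p = 0.978, 0.349 and 0.262).

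Ethanol added to DEHP changed none of the 7 genes. In edgeR 0 rose and 0 fell, where 0.0467% of all genes rose and 0.0748% fell, so the background itself was close to 0. Of the 7, 0 had an unadjusted p below 0.05 there. Over all genes edgeR called 13, with 1159 at an unadjusted p below 0.05, and DESeq2 called 44. Leaving out 1 library gave 0 to 18 calls, with 0 (873 to 1090 at an unadjusted p below 0.05) without DEHP replicates 2 or 3 or combination replicates 1, 2 or 5, and 4 to 6 without DEHP replicates 5 or 6 or combination replicate 3. Among the 7, the 95% intervals ran from -0.43 at the lowest bound (Abcg8) to 0.71 at the highest (Insig1, 0.31 ± 0.20), so an Insig1 difference of moderate size cannot be set aside.

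DEHP added to ethanol raised 3 of the 7 genes and lowered 0 (15.1% and 12.7% of all genes). Srebf2 rose by 0.34 ± 0.10 (edgeR adjusted p = 0.0107) and Insig2 by 0.51 ± 0.11 (edgeR adjusted p = 0.00106). Insig1 rose by 0.55 ± 0.20 (edgeR adjusted p = 0.0389), a call lost without any of ethanol replicates 1, 2, 4 or 5 or combination replicates 1, 3 or 5 (edgeR adjusted p = 0.0562 to 0.111), and without the 3 libraries with other tissues' transcripts (0.57, edgeR adjusted p = 0.0516). DEHP alone against ethanol alone gave 2 rises and 0 falls (13.7% and 12% of all genes), in Srebf2 (0.38 ± 0.10, edgeR adjusted p = 0.00533) and Insig2 (0.44 ± 0.11, edgeR adjusted p = 0.00451).

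**Figure D4:**
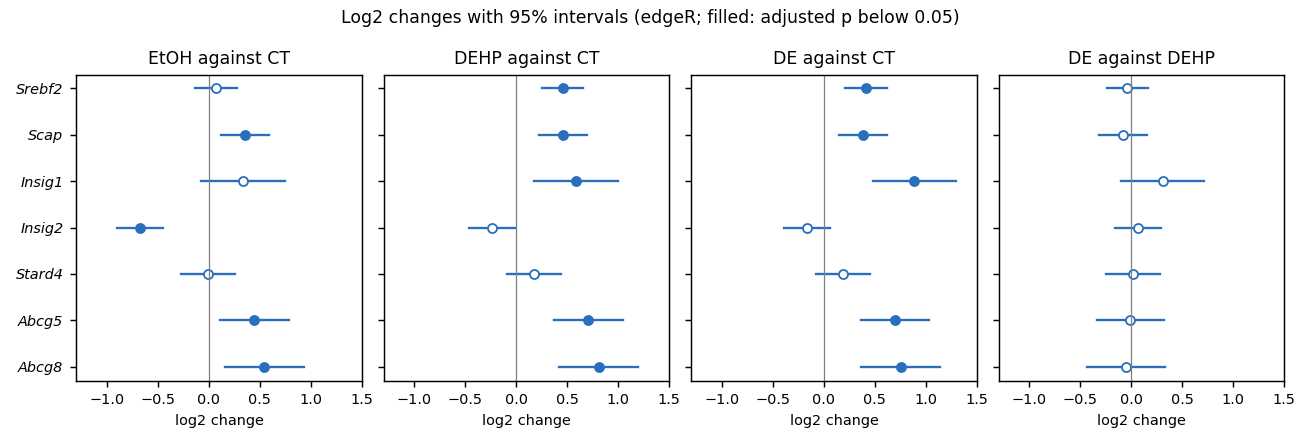
Log2 change of each of the 7 genes for ethanol, DEHP and the combination against vehicle, and for the combination against DEHP. Each is shown with its 95% interval, from edgeR. Insig2 is the one gene called lower with ethanol alone (-0.67), while Abcg5 and Abcg8 have the largest changes with DEHP alone (0.71 and 0.81).

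Genes of the surrounding pathway were read from 4 lists. Of 20 cholesterol synthesis enzymes, known as SREBP-2 targets, 1 rose and 1 fell with ethanol (median log2 change 0.08). Over all genes tested, 14.2% rose and 14.5% fell with ethanol. All 20 rose with DEHP and with the combination (medians 1.12 and 1.21), where 14.4% and 19.3% of all genes rose. Acat2 (1.38 ± 0.15 and 1.61 ± 0.15), which makes acetoacetyl-CoA, and Cyp51 (1.15 ± 0.13 and 1.26 ± 0.13), a sterol demethylase, had the smallest adjusted p in edgeR in both. With ethanol, Tm7sf2, a sterol reductase, rose by 0.50 ± 0.10 and Pmvk, phosphomevalonate kinase, fell by 0.46 ± 0.15.

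Of 14 other genes of SREBP processing and sterol-regulated degradation, 3 rose and 2 fell with ethanol, 2 rose with DEHP and 1 with the combination. Over all genes tested 14.2% rose and 14.5% fell with ethanol, and 14.4% and 19.3% rose with DEHP and the combination, so these counts lie near or below the background. Srebf1, which encodes SREBP-1, rose with ethanol (0.86 ± 0.20, edgeR adjusted p = 0.00299), as did Rnf145, a ubiquitin ligase (0.67 ± 0.19). Rnf145 rose with DEHP as well (0.56 ± 0.19). Vcp, an ATPase that extracts proteins from the endoplasmic reticulum, rose with DEHP (0.36 ± 0.06) and the combination (0.45 ± 0.06).

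Of 10 tested LXR (liver X receptor, a sterol-activated nuclear receptor) genes and targets, 4 rose and 0 fell in each of the 3 comparisons with vehicle (medians 0.10, 0.23 and 0.30; 14.2%, 14.4% and 19.3% of all genes rose). In each comparison the genes that did not pass had values on either side of 0. The genes called with ethanol and those called with DEHP or the combination had only Pltp, phospholipid transfer protein, in common. Pltp rose by 1.07 ± 0.21 with ethanol and by 2.92 ± 0.21 and 2.93 ± 0.21 with DEHP and the combination. Lpcat3, a lysophospholipid acyltransferase, rose by 0.61 ± 0.12 and 0.76 ± 0.12 in the latter. Of 16 tested genes of sterol traffic, storage and exchange, 8 rose and 2 fell with ethanol, 4 and 2 with DEHP, and 5 and 2 with the combination. All genes tested gave 14.2% and 14.5%, 14.4% and 11.6%, and 19.3% and 17.4% in the same order, to which the DEHP and combination counts lie close. Gramd1c, which encodes a sterol transfer protein, fell in all 3 comparisons with vehicle (-0.63 ± 0.11, -0.34 ± 0.11 and -0.48 ± 0.11 in the same order). Tmem97 rose in all 3 (0.33 ± 0.09, 0.81 ± 0.09 and 0.85 ± 0.09). So did Npc2, which binds cholesterol in lysosomes (0.24 ± 0.08, 0.24 ± 0.08 and 0.38 ± 0.08). Lipa, the lysosomal lipase, rose with DEHP and the combination (0.39 ± 0.09 and 0.37 ± 0.09). No gene of any list passed when ethanol was added to DEHP.

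**Figure D5:**
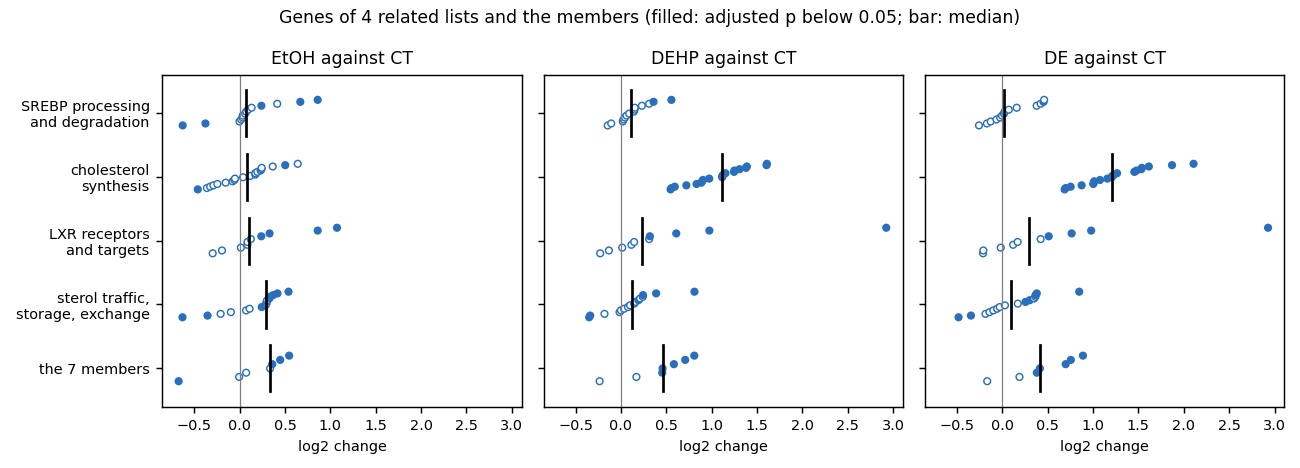
Log2 changes against vehicle of the genes in the 4 pathway lists and of the 7 genes described, 1 point per gene (filled where the edgeR adjusted p is below 0.05, bar at the median). The 20 cholesterol synthesis enzymes lie above 0 with DEHP (median 1.12) and near 0 with ethanol (median 0.08).

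The genes whose pattern was most like each member were taken by Pearson r of log2 CPM (counts scaled to library size). All 24 libraries entered, also those that held other tissues' transcripts. The r after subtracting group means is given second, and both are descriptions. Among the genes most like Srebf2 were Slc20a2 (0.90; 0.79) and Psap (0.89; 0.74). Among those most like Insig1 were Mvd (0.91; 0.86), which encodes an enzyme of the mevalonate pathway, and Nfe2 (0.90; 0.79). Insig2 was most like Clpx (0.86; 0.64), Nr1i2 (0.86; 0.71), which encodes the nuclear receptor PXR, and Arhgef37 (0.86; 0.67). Scap was most like Tmbim6, Pttg1ip and Llgl2 (0.88, 0.87 and 0.85), and Stard4 less closely like Lmbrd2, Elovl6 and Secisbp2l (0.76, 0.71 and 0.70). Abcg5 was most like Slc27a2, Rdh9 and Tex264 (0.87, 0.86 and 0.85) and Abcg8 like Cyp2e1, Rdh9 and Nlrx1 (0.88, 0.87 and 0.86).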

How the data were processed

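Liver RNA was sequenced in 24 libraries, 6 per group, and groups and numbers were read from the titles. The authors deposited, per library, an expected count per gene and an FPKM value, with a length in bases, per the file headers. Between 94.5% and 95.3% of expected counts were whole (within 0.005). Cuffdiff (no version or role stated) and the builds mm10 and GRCm38 are named in the submitters' processing notes. Aligner, counting program, filters and strand handling were not given in the sources used here.

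Rounded expected counts entered edgeR 4.0.16 under R 4.3.3, with TMM scaling, all 4 groups in 1 model and the quasi-likelihood F test, on genes with FPKM of at least 1 in at least 6 libraries. Intervals use the model's degrees of freedom. Ratios and lengths were tested by exact permutation in Python 3.11.15 with Benjamini-Hochberg adjustment. Alternatives were DESeq2 1.42.0, limma 3.58.1 on log2 FPKM and TPM with pseudocounts of 1 or 0.1, quantile normalisation, removal of a length trend, no filter, no TMM factors, the compared groups alone, a replicate block, and leaving libraries out. In simulated counts of the ethanol comparison (10697 genes), edgeR recovered 56.7%, 80.6% and 100% of 67, 67 and 66 genes changed 1.5, 2 and 4-fold, with 6% of calls false. The simulated spread came from the vehicle libraries alone. In the data 3079 genes were called with ethanol, far more than were changed there, so these shares do not carry over.

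The members and lists were chosen with earlier results of these data known. Named beside the members were, per list and comparison with vehicle, up to 2 called genes with the smallest adjusted p, and per member the 3 genes with the highest r. Some genes that this rule names are not reported here. Coordinates and promoters are from RefSeq (GRCm38.p6), where 6 of the 7 genes matched the promoter table.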

Additional observations from a re-analysis of the deposited data

Results flagged for a closer look

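In 36 groups of 6 libraries, the gap of the highest or lowest library to its neighbour was set against the group's range; chance marks about 1 in 20 such groups. Insig1 reached 285.34 FPKM in combination replicate 5, apart from the other 5 libraries of the group. Without it, the rise with the combination was 0.77 (edgeR adjusted p = 0.00442). Abcg5 was at 27.99 FPKM in DEHP replicate 5, below the other 5, and without it the rise with DEHP was 0.79 (edgeR adjusted p = 0.000811).

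The ethanol change of Insig2 differed with and without DEHP by 0.74 ± 0.16 on the log2 scale (edgeR adjusted p = 0.00536). Ethanol lowered Insig2 in 6 of 6 libraries against the vehicle range when given alone, and 3 of 6 combination libraries lay above the DEHP mean.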

How the results depend on the processing

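Of 1757 values of the 49 member changes under other settings, 1695 kept their side of the threshold, 55 lost the call and 7 gained it. Sign changes numbered 58, all of changes not called. With ethanol, 4 members were called; without TMM factors, with limma on log2(FPKM+1) without a filter, with limma on TPM, and without the 3 libraries holding other tissues' RNA, 1 was called, and leaving out 1 library gave 1 to 4. The call that remained in these was Insig2. The interaction called 1 member, and 1 to 2 with a library left out (Scap, -0.52, edgeR adjusted p = 0.0338, without DEHP replicate 5). The Insig2 to Insig1 ratio for DEHP ranged from -0.94 to -0.74 with a library left out, and missed the threshold without DEHP replicate 1 (exact permutation, adjusted p = 0.0505).

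No pairing of libraries by replicate number was seen. Over all genes tested, deviations from group means in same-numbered libraries had correlations of -0.215 to 0.211 over 36 pairs. Their median was -0.0105, against -0.002 for libraries of other numbers. Such correlations cannot exclude a pairing. Under the replicate block the ratio differences against vehicle were -0.9861, -0.8454 and -1.0746 for ethanol, DEHP and the combination, with an adjusted p of 0.104 each (exact sign-flip test, which cannot go below p = 0.0312). In edgeR the block changed no member call.

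Over all genes, ethanol added to DEHP gave 13 calls, 44 in DESeq2, 1 without a filter and 5 to 7 in limma on FPKM or CPM, 6 with the compared groups alone, 5 with the block, 8 without the 3 libraries holding other tissues' RNA, and 0 to 18 with 1 library left out. The interaction gave 686 calls, 958 in DESeq2, 369 in limma without a filter and 365 without those 3 libraries. TPM moved the median of all genes by -0.14 for ethanol, 0.11 for the combination against ethanol and 0.15 for DEHP against ethanol. For ethanol the split of calls was 1524 higher and 1555 lower, 930 and 2061 without TMM factors, 1090 and 1780 in limma on log2(FPKM+1) and 481 and 2764 on TPM. In the simulation, which changed far fewer genes than were called in the data, 56.7% of 1.5-fold changes were recovered. Scap with the combination (0.25, adjusted p = 0.083), Insig1 with DEHP (0.46, 0.0885) and Insig1 with the combination against ethanol (0.50, 0.0623) lost their calls in limma on quantile-normalised values, in which Insig2 passed with DEHP and the combination (-0.36 and -0.32).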

Other observations

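Beside Abcg5 and Abcg8, the closest pair of members across the 24 libraries was Scap and Abcg8 (r = 0.84, and 0.71 after subtracting group means). Insig1 and Insig2 showed no common movement (-0.02 and -0.01). Srebf2 and Insig2 had r = -0.13 over all libraries and -0.56 within groups. These are descriptions over libraries that share depth and scaling and include those holding other tissues' RNA. Srebf2 varied least of the 7 within groups, with an SD of 0.18 on the log2 scale, and Insig1 and Abcg8 most (0.37 each).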
